A study of Mus musculus with 2 samples.

Results

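The transcripts described here are 10 myogenic regulators among 19511 genes named on a mouse microarray: the muscle transcription factors Myf5, Myod1, Myog and Myf6, the precursor factors Pax3 and Pax7, the MEF2 proteins Mef2a, Mef2c and Mef2d, and the secreted muscle growth inhibitor Mstn. They were chosen by name as genes of the skeletal muscle lineage, with which brown fat shares its origin in the embryo. All 10 were represented, by 16 probes on 52 spots of each array. Mstn carries its old name Gdf8 in the array files and was found through its transcript accession.

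The study compared mice lacking PKGI (PKGI-/-, called KO) with wild type littermates (WT), all of the C57BL/6N background. PKGI, the product of Prkg1, is a protein kinase that cGMP switches on. On one two-colour Agilent array (the BAT array) untreated brown adipose tissue of a KO mouse, in Cy5, was set against that of a WT littermate, in Cy3. The other (the adipocyte array) set cultured brown adipocytes, differentiated from preadipocytes of a KO mouse and labelled with Cy3, against those from a WT littermate, in Cy5. Ages, sexes and the part of Prkg1 that was deleted are not given in the sources used here. There was 1 array per comparison and no dye swap, so no test between genotypes was possible, and for any 1 gene an effect of dye and an effect of genotype cannot be told apart. All ratios are log2 values of KO over WT, "higher" and "lower" refer to KO against WT on that array, and genes were counted at a difference of at least 2-fold. A probe was taken as present where most of its usable spots were marked well above background by the scanner software.

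Skeletal muscle and brown fat both descend from cells of the embryonic dermomyotome, where Pax3, Pax7 and Myf5 are active. In the muscle branch Pax3 and Pax7 keep precursors and satellite cells, Myf5 and Myod1 commit cells to the muscle fate, Myog drives myoblasts to fuse and differentiate, and Myf6 (MRF4) acts in late differentiation and in the mature fibre. These 4 myogenic factors are basic helix-loop-helix (bHLH) proteins that bind E-boxes as partners of E proteins, and MEF2 proteins bind beside them at muscle genes. In the brown fat branch PRDM16 and EBF2 take part in turning precursors away from muscle, and mature brown adipocytes make little of the myogenic factors.

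The 250 bases before the transcription start of Myog and Myf5 are shown because these genes had the largest ratio among the members with a repeated probe, Myog in tissue and Myf5 in culture. They are RefSeq sequences of GRCm38.p6, written in the direction of transcription. Capitals mark E-boxes (CANNTG) and the MEF3 motif (TCAGGTTTC), a motif known from muscle gene promoters, searched on both strands. The Myog window is chr1:134289754-134290003 on the plus strand and the Myf5 window is chr10:107486135-107486384 on the minus strand.
Myog: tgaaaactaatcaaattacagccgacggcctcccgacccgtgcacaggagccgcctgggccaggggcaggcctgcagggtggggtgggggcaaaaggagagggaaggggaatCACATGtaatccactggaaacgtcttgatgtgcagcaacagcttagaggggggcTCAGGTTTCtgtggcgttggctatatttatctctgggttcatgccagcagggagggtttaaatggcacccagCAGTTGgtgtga
Myf5: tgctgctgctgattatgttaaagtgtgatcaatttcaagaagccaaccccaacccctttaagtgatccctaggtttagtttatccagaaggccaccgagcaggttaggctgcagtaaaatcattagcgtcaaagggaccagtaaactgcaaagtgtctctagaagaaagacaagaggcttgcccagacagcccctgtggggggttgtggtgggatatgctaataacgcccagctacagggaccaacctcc

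The Myog window held 2 E-boxes, CACATG from base 138 to base 133 before the start and CAGTTG from base 12 to base 7, and a MEF3 motif from base 84 to base 76, none overlapping another. The Myf5 window held no match to either motif, to the MEF2 consensus or to the TATA box TATAAA. Among 32851 RefSeq promoter windows of 250 bases, 66.2% held an E-box, 0.387% the MEF3 motif, 2.92% the MEF2 consensus and 12.4% TATAAA on either strand. The GC content was 56.4% for Myog and 48.8% for Myf5, against a median of 52.4% over all windows. Of the members, 7 had a sequence in the promoter table. The others were Myf6, Myod1 and Pax3.

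Each array had 45018 spots. The share of gene spots marked well above background was 74.1% for KO and 63.1% for WT on the BAT array, and 68.1% and 70.1% on the adipocyte array. Log2 ratios of repeated spots of a probe had a pooled SD of 0.098 (185 probes, BAT array) and 0.090 (193 probes, adipocyte array), a measure of spotting and scanning alone. Prkg1, the targeted gene, had a log2 ratio of -0.84 in tissue and -1.03 in culture (means over 3 kept probes, which ranged from -1.29 to 0.01 and from -2.31 to 0.17). Over its probes well above background in both channels the values were -1.26 and -1.63, and it was present in both KO channels. The adipocyte markers fixed for this work were present in all channels, 14 of 14 genes, and of 20 brown fat genes 20 were present in both tissue channels, 17 in the KO and 19 in the WT culture. The samples compared also differed in sex-linked transcripts. Xist had a log2 ratio of 4.41 in tissue and -3.36 in culture, and Eif2s3y was well above background in the WT channel only in tissue and in both channels in culture. On these arrays such differences cannot be told apart from those of genotype. Their part in the results below was not tested.

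More of the muscle regulators were called present in culture than in tissue, but each count was not far from the share of all named genes. In tissue 7 of the 10 members were present in KO and 6 in WT, where 80.1% and 71.1% of all named genes were. In culture 9 were present in KO and 7 in WT, where 75.1% and 76.3% of all named genes were. Mstn was the member not well above background in any of the 4 channels, and Pax3 and Myf5 were present in culture but not in tissue. Presence depends on the local background, which over the member probes was 49 to 57 units for KO and 28 to 34 for WT (probe medians) on the BAT array, and 34 to 47.5 and 52 to 57 on the adipocyte array.

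In tissue, 2 members were at least 2-fold lower in KO, Myog and Myf6, and none was higher. Over all 15620 genes kept on the BAT array, 2.44% were at least 2-fold lower and 0.8% at least 2-fold higher (3.24% either way). The median of the 7 members kept was -0.06, against 0.00 over all genes. In culture, 1 member was at least 2-fold higher in KO, Myf5, and none was lower. Over all 15115 genes kept on the adipocyte array, 2.5% were higher and 4.17% lower by that amount (6.67% either way). The median of the 9 members kept was 0.39, against 0.00 over all genes. Of these 9, Myf5 and Myf6 were kept through the KO channel alone, which favours a ratio above 0. Among the other 7, 4 lay above 0, as did 49.8% of all genes.

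**Figure D1:**
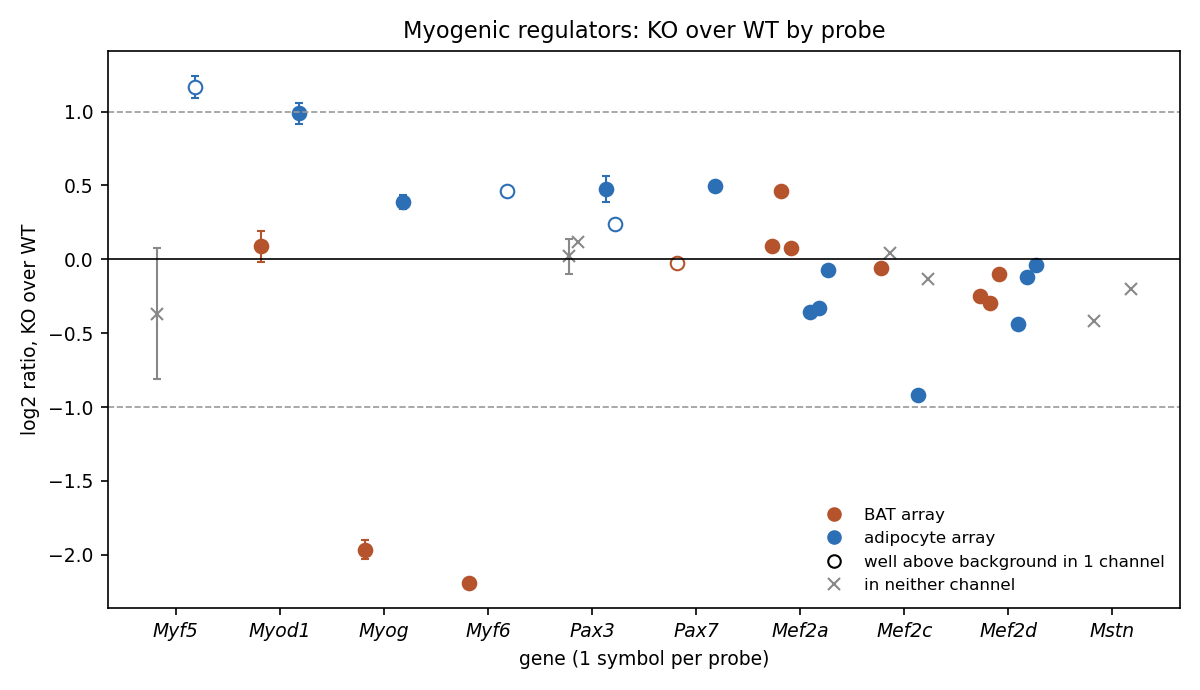
Log2 ratio of KO over WT (vertical axis) for every probe of the 10 members (horizontal axis), tissue in brown and culture in blue. Bars are the SD over the spots of a repeated probe on 1 array and not an error between animals, open points were well above background in 1 channel, crosses in neither, and dashed lines mark a 2-fold difference. Myog and Myf6 lie near -2 in tissue and above 0 in culture, and Myf5 lies above 1 in culture.

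Pax3 and Pax7, paired-box factors of muscle precursors, were at or near background in tissue. The repeated Pax3 probe (chromosome 1, bases 78328329 to 78328388; probe positions are those of the array files, with no build stated) had a median signal of 56.5 over a local background of 51 in the KO tissue channel and of 38.7 over 33.5 in the WT channel. Neither Pax3 probe was kept there. In culture the same probe had signals from 376 to 475 in the KO channel and from 611 to 769 in the WT channel on its 10 spots. These are raw signals of different dyes, and after normalization the ratio was 0.48 ± 0.089 (SD over 10 spots of 1 array), with every spot above 0. The other Pax3 probe (bases 78409036 to 78409095) had 0.24 and was well above background in the KO channel only, and the gene mean was 0.36.

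Pax7 (chromosome 4, bases 139116890 to 139116949) was measured on 1 spot per array. In tissue its signal was 73.8 over a background of 49 in KO and 45.9 over 29.5 in WT, and only the KO channel was marked well above background. Its ratio there was -0.02, with normalized levels of 6.37 and 6.39. In culture its signals were 97.9 over 41 in KO and 124 over 52 in WT, present in both channels, with a ratio of 0.50.

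Myf5, a factor that commits precursors to muscle and that is also switched on in forerunners of brown adipocytes, was present in 1 of the 4 RNA samples, the KO culture. Its probe (chromosome 10, bases 106945401 to 106945460) was well above background in the KO channel on all 7 usable spots, and on none of them in the WT channel. Over all 10 spots the signals ran from 96.6 to 123 in KO, over a background of 44.2, and from 76.7 to 86.0 in WT, over a background of 54.8. The log2 ratio was 1.16 ± 0.076 (SD over 7 spots). As the WT value has only a bound, Myf5 was at least 2.08-fold higher in KO, measured from the lowest level of any probe well above background in that channel. In tissue the probe had a median signal of 57.1 over 55 in KO and of 49.3 over 33.5 in WT. No usable spot was well above background in KO and 2 of 9 were in WT, with levels of 7.13 and 7.40 where the other spots lay at or below 6.44. In RNA of whole cultures or tissue, fewer cells of a type and less RNA per cell cannot be told apart, here and for each gene below.

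Myod1, which commits myoblasts and marks activated satellite cells, was present in all 4 channels. In tissue its probe (chromosome 7, bases 42554787 to 42554846) had signals from 143 to 204 in KO and from 68.4 to 87.5 in WT, in dyes of different brightness. The normalized ratio was 0.09 ± 0.107 (SD over 10 spots), with spots from -0.04 to 0.27 on both sides of 0. In culture the signals ran from 488 to 596 in KO and from 535 to 683 in WT. The ratio was 0.99 ± 0.072 (SD over 9 spots), a 1.98-fold higher level in KO, with spots from 0.90 to 1.09 that straddle the 2-fold line. The distance from 0 was more than the spread between spots in culture but not in tissue.

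Myog, the factor of terminal myoblast differentiation, was below 0 in tissue and above 0 in culture, on every usable spot of each array. KO was in Cy5 in tissue and in Cy3 in culture, so both normalized ratios lay towards Cy3. An effect of dye cannot be told apart from one of genotype here. The Myog probe (chromosome 1, bases 134182082 to 134182141) had 10 spots. Its tissue signals ran from 231 to 288 in KO and from 401 to 544 in WT, and every WT spot was brighter than every KO spot. The ratio was -1.96 ± 0.062 (SD over 9 spots), 3.90-fold lower in KO, with spots from -2.05 to -1.86. In culture the signals ran from 3552 to 4353 in KO and from 5770 to 7147 in WT, and the normalized ratio was 0.39 ± 0.049 (SD over 8 spots). That value depends on the intensity-dependent dye correction (loess): without it the ratio was -0.02. The median of all genes was then -0.26, so Myog changed sign but stayed above that median.

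Myf6, the factor of late differentiation and mature fibres, had the largest ratio of any member on either array. Its probe (chromosome 10, bases 106955664 to 106955723) lies on 1 spot per array. In tissue the signal was 146 over 57 in KO and 337 over 34 in WT, and the ratio was -2.19, 4.55-fold lower in KO. In culture it was 75.6 over 40 in KO, well above background, and 91.8 over 54.5 in WT, not well above background. The ratio there was 0.46, or 1.38-fold higher in KO. As WT was not well above background this counts as a bound, but it equals the measured ratio of 1 spot. With outlier spots kept in the background fit, the tissue values of Myf6 and Myog were -0.32 and -0.45, no longer past 2-fold.

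Set on 1 scale (log2 levels after loess and Aquantile, across arrays that were hybridised separately and in different dyes), the level of Myog was 11.86 ± 0.045 in the KO culture, 11.48 ± 0.029 in the WT culture, 10.20 ± 0.090 in WT tissue and 8.24 ± 0.075 in KO tissue (SD over spots). No neighbours in that order overlapped on any spot. Myod1 was at 9.16 in the KO culture, 8.17 in the WT culture, 7.38 in KO tissue and 7.30 in WT tissue, and the tissue values overlapped. The repeated Pax3 probe was at 8.81 in the KO culture and 8.34 in the WT culture, without overlap, and at 6.02 and 6.00 in KO and WT tissue, at background. Myf5 was at 7.24 in the KO culture. Its levels of 6.37 in WT tissue, 6.07 in the WT culture and 6.00 in KO tissue did not differ beyond the spread between spots.

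**Figure D2:**
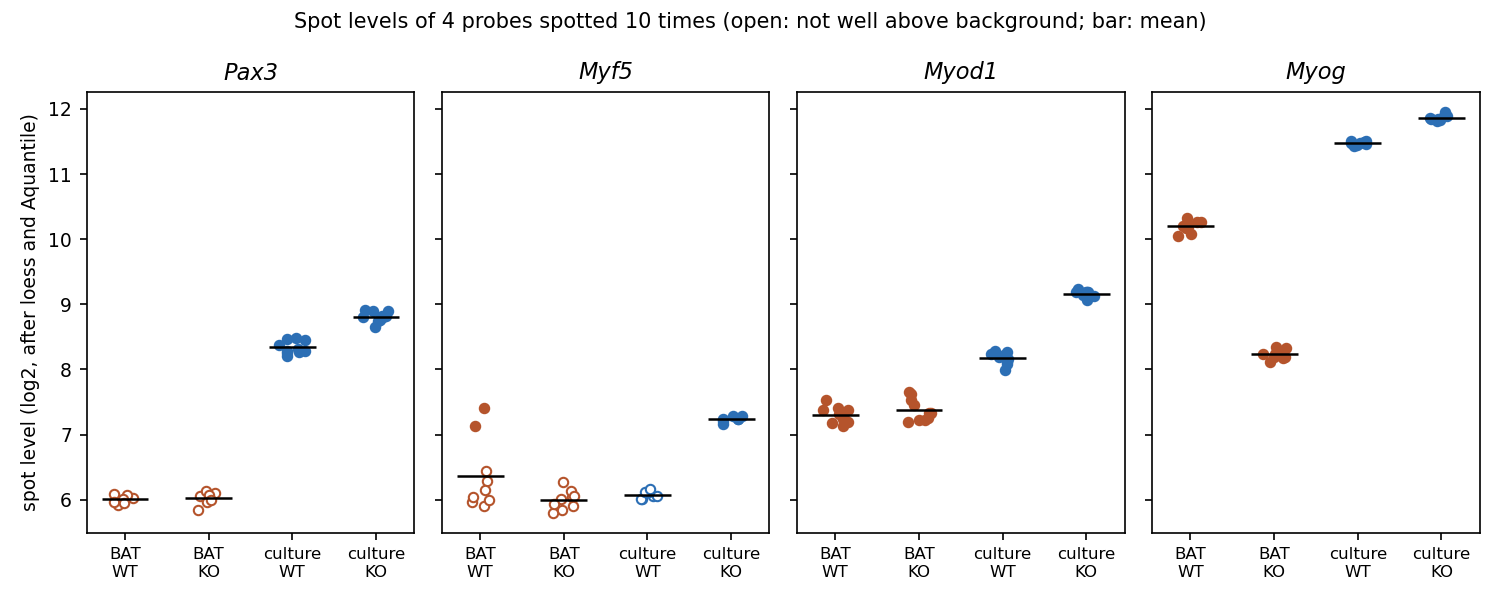
Level of each usable spot (vertical axis, log2 after loess and Aquantile) for the probes of Pax3, Myf5, Myod1 and Myog that were spotted 10 times, in WT and KO tissue (brown) and in WT and KO culture (blue). Bars are means over spots of 1 array, and open points were not well above background. All Myog spots of KO tissue lie below those of WT tissue (8.24 against 10.20 on average), and Myf5 has filled points in the KO culture and on 2 spots of WT tissue.

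The MEF2 proteins, MADS-box factors that act with the myogenic factors and also in many other cells, were present in both tissue channels and both culture channels. Mef2a had 3 probes on chromosome 7 with tissue ratios from 0.08 to 0.46 (mean 0.21) and culture ratios from -0.36 to -0.07 (mean -0.25). Mef2d had 3 probes on chromosome 3 with tissue ratios from -0.30 to -0.10 (mean -0.22) and culture ratios from -0.44 to -0.04 (mean -0.20). The probes of each gene shared a sign within an array, and none was past 2-fold. Mef2d turned to 0.13 in tissue without loess, where the median of all genes was 0.25, so it stayed below that median.

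Mef2c, the family member expressed in muscle, heart, endothelium, neurons and some immune cells, gave the lowest member ratio in culture. Its probe at bases 80738124 to 80738183 of chromosome 13 had a signal of 689 over 44 in KO and 2973 over 52 in WT culture, a ratio of -0.92 or 1.89-fold lower. In tissue the same probe had 2335 over 55 in KO and 1038 over 31 in WT, a ratio of -0.06 after normalization. Its other probe (bases 80652493 to 80652552) was at background in all 4 channels. Without loess Mef2c was at -1.34 in culture, past 2-fold, and at 0.48 in tissue. The medians of all genes were then -0.26 in culture and 0.25 in tissue.

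Mstn, the TGF-beta family protein (myostatin) that skeletal muscle secretes and that limits muscle growth, was at background throughout. Its probe (chromosome 1, bases 53301160 to 53301219) had signals of 63.3 over 52.5 in KO and 56.9 over 31.5 in WT tissue, and of 42.8 over 42 and 78.2 over 55 in the KO and WT cultures. No fold is given. Of 22 genes of the myostatin pathway (activin receptors, SMADs, follistatins and processing enzymes), 21 were kept on each array. None was past 2-fold in tissue, with a median of 0.06, and the largest values were 0.41 for Smad4, the shared SMAD, and -0.40 for Inhbb. In culture 1 was higher and none was lower (median 0.06). That gene was Inhba, the activin A subunit, at 2.13.

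Other genes that act on or with the members were taken from fixed lists. Of 20 upstream regulators of the somite and of muscle precursors, 19 were kept in tissue, with none past 2-fold and a median of -0.02. The largest values there were 0.88 for Tbx6 and 0.85 for Dmrt2, both transcription factors of the early somite. In culture 20 were kept, 1 was higher (Foxc2, a forkhead factor of the paraxial mesoderm, at 1.55) and none lower. There 18 of the 20 lay above 0, with a median of 0.29, where 49.8% of all genes lay above 0.

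Among the bHLH partners and inhibitors of the myogenic factors, all 15 were kept on both arrays. In culture 4 were higher and none was lower (median 0.49). These were Id4 at 2.15, Id3 at 1.48 and Id2 at 1.05, inhibitors that bind E proteins and keep them from DNA, and Hes1, a repressor downstream of Notch, at 1.16. In tissue none was past 2-fold, 10 of 15 lay below 0 and the median was -0.23, which was 0.27 without loess, where the median of all genes was 0.25. The E protein genes Tcf3, Tcf4 and Tcf12 ranged from -0.10 to 0.17 in tissue and from -0.08 to 0.49 in culture.

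Of 20 MEF2 partners (Mef2b, class IIa histone deacetylases, kinases and TEAD and SRF factors), 20 were kept in tissue and 19 in culture, with medians of 0.02 and 0.04. None was past 2-fold in tissue, where Vgll2, a TEAD cofactor of skeletal muscle, had -0.80 and Tead1 had 0.77. In culture Vgll2 was the single gene past 2-fold, at 1.17. Myog and Myf6 had the same signs as Vgll2 on both arrays. In culture, however, the sign of Myog depended on loess and Myf6 had only a bound, so no conclusion is drawn from this match.

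Genes of mature skeletal muscle were lower in KO tissue along with Myog and Myf6. Among the 34 kept, 33 were past 2-fold, all of them lower, with a median of -2.39 and a range from -3.31 for Tnnt1 (slow troponin T) to -0.45 for Pvalb (parvalbumin). The median was -1.53 with outlier spots kept in the background fit. Actn2, a protein of the Z-disc, had -3.27, and the myosin heavy chains Myh2 and Myh7 had -3.22 and -3.21. The summed level of the list was 106192 units in KO and 573344 in WT tissue, with 33 and 34 genes well above background. The ratios of Myog and Myf6 lay inside the range of this list. Of 18 satellite cell and myoblast genes kept, 7 were lower and none was higher (median -0.55, and -0.06 with outlier spots kept). They included the developmental myosins Myh3 (-2.97), Myl4 (-2.38) and Myh8 (-1.41) and the myoblast cadherin Cdh15 (-1.55). The summed level of that list was 18110 units in KO and 50407 in WT tissue. Among 9 cardiac genes kept, Myh6 (-2.89) and Tnnt2 (-2.47) were lower and none was higher. Of the 9, 5 lay above 0 and the median was 0.03. All 9 were well above background in KO but only 5 in WT. The others were kept through the KO channel alone, which favours a ratio above 0, so no conclusion is drawn for the cardiac list as a whole. Of 11 smooth muscle genes 3 were lower and none was higher (median -0.63, and -0.02 without loess), with a summed level of 28295 units in KO and 60007 in WT tissue. Those 3 were Tpm2 (-2.02), Tpm1 (-1.83, probes from -2.57 to -0.46) and Synpo2 (-1.13, probes from -2.58 to -0.29). At least the tropomyosins are also made in skeletal muscle. Whether the amount of muscle in the tissue pieces plays a part in the values of Myog and Myf6 was not tested.

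The culture held little mature muscle signal by comparison. Of 30 mature muscle genes kept there, 1 was higher (the muscle actin Acta1, at 1.52) and none was lower (median -0.06). The summed level was 18497 units in KO and 13564 in WT, and Ckm, Ckmt2, Mybpc1, Mybpc2 and Pvalb were not well above background in either channel. Of 19 satellite cell and myoblast genes kept, 3 were higher, namely Cdh15 (1.27), the Notch target Heyl (1.17) and the acetylcholine receptor subunit Chrnb1 (1.00). Myh3 was lower, at -1.40. The list's median was 0.35, or 0.09 without loess, where the median of all genes was -0.26. The summed level of the list was 13060 units in KO and 10655 in WT.

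Lists of other cell types differed between the cultures. All 14 adipocyte genes were at least 2-fold lower in KO, with a median of -3.25, and their summed level was 20708 units in KO and 269110 in WT. Pparg, the master regulator of fat cell formation, had -3.49 and Adipoq, the adipokine adiponectin, had -5.22. Of 11 macrophage genes 9 were lower (median -1.76, summed level 49751 units in KO and 221425 in WT). Of 11 smooth muscle genes 6 were higher (median 1.24, summed level 198678 units in KO and 56860 in WT). Of 9 fibroblast and preadipocyte genes 1 was higher, with a median of 0.25. The part of these differences in cell makeup in the values of Myf5, Myod1, Pax3, Pax7 and Mef2c was not tested.

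Brown fat genes, among them regulators that turn precursors from the muscle fate, were read on the same arrays. Of 20 brown fat lineage and thermogenic genes kept in tissue, 4 were lower and 1 was higher (Cidea 1.01). The lower genes were Elovl3 (-2.14), Ucp1 (-1.84), Otop1 (-1.38) and Dio2 (-1.07). The list median was -0.20, or 0.40 without loess, where the median of all genes was 0.25. Prdm16 and Ebf2, the transcription regulators of brown fat identity, had -0.12 and 0.57. In culture 8 of 19 were lower and none was higher (median -0.65). There Ucp1 had -3.78, Cidea -3.38, Prdm16 -1.14 and Ebf2 -1.87.

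**Figure D3:**
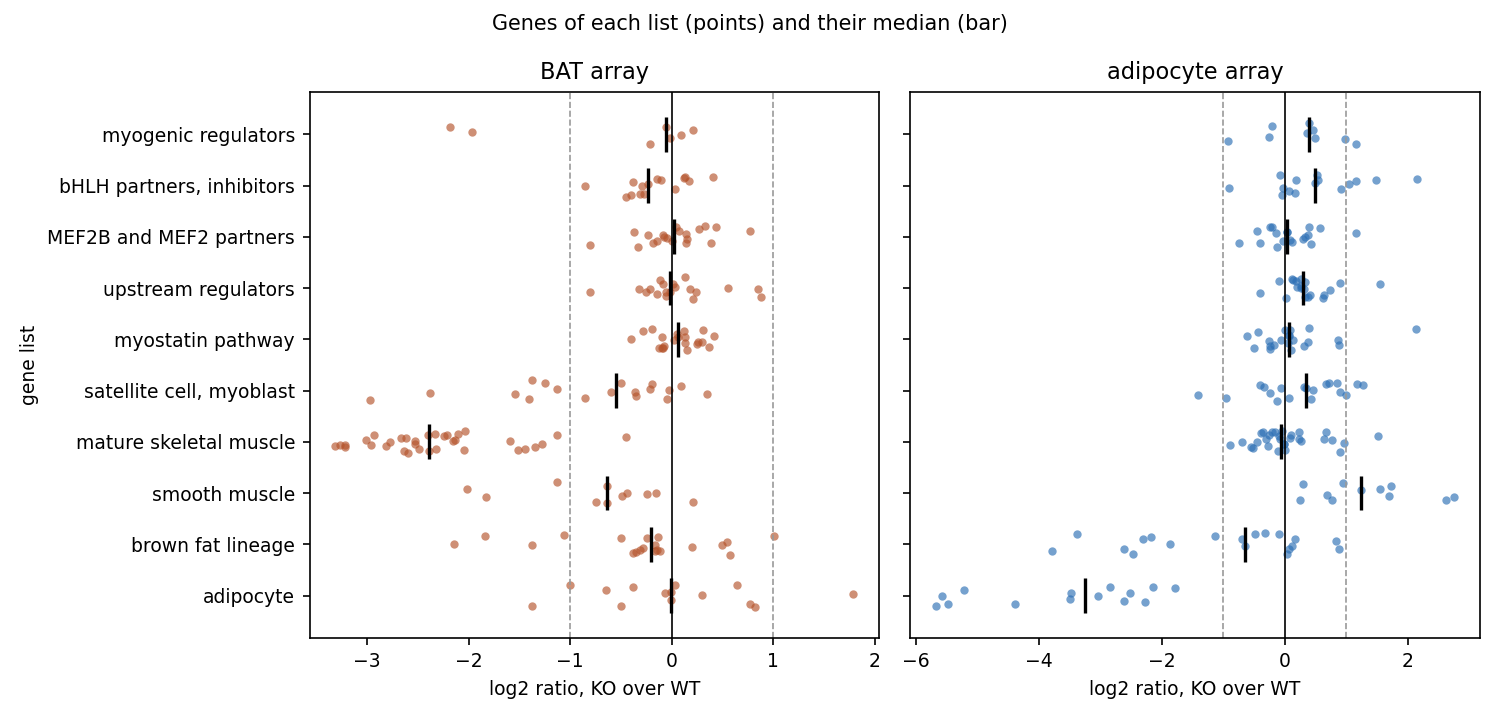
Log2 ratio of KO over WT (horizontal axis, with a wider range in the adipocyte panel) for each kept gene of 10 of the fixed lists (points), with the list median (bar) and dashed lines at a 2-fold difference. In tissue the mature muscle list has its median at -2.39 and the myogenic regulators at -0.06, with Myog and Myf6 among the muscle genes. In culture the adipocyte list has its median at -3.25, the smooth muscle list at 1.24 and the myogenic regulators at 0.39.

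Myf6, the member with the largest ratio, was set against the other genes kept on both arrays by the distance between their pairs of log2 ratios, 2 values per gene over 14275 genes. The nearest were Cavin4 (distance 0.097, with -2.14 in tissue and 0.55 in culture), Pdlim3 (0.100, with -2.28 and 0.42) and Ankrd2 (0.113, with -2.17 and 0.35). Cavin4 encodes a muscle caveolar protein, Pdlim3 a protein of the Z-disc and Ankrd2 a stretch-responsive muscle protein. The culture value of Myf6 has only a bound, so these distances and their order rest on a value near background and describe these arrays alone.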

How the data were processed

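Trizol extraction was followed by labelling with Agilent's Low RNA Input Linear Amplification Kit, per the labels' protocols. The deposited scanner files come, per the file headers, from Agilent Feature Extraction 9.5.1.1 (protocol GE2-v5_95_Feb07) and hold spot intensity values, the mean signal and local background of each dye, with the software's log10 ratio. The authors' deposited value table gives log10 ratios, turned to KO over WT. It was within 0.017 of the software's ratio on the log2 scale, had medians of 0.09 and 0.02, and was empty for 7623 and 6968 gene spots, for a reason not stated.

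Ratios were computed from the intensities with limma 3.58.1 in R 4.3.3: normexp background correction (offset 50) and loess with control spots at weight 0. Spots with an outlier flag, 1215 in tissue and 203 in culture, were left out first. Spots were averaged per probe, probes well above background in at least 1 channel were kept, and kept probes were averaged per gene. That a probe counts as well above background by the majority of its usable spots was settled after the files were seen. Bounds ("at least N-fold") set the bright level against the higher of the dim probe's own level and the lowest level of any probe well above background in that channel, after Aquantile scaling. Probes were named through the RefSeq table of GRCm38.p6, by accession (23075), symbol (6587) or synonym (3072), and 8440 of 41174 matched no gene. Background correction and loess were run on simulated spots with known changes. The simulated dyes had no intensity-dependent bias, so the correction of such a bias was not tested. Nor were the probe averages, presence calls and bounds.

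With 1 array per comparison nothing was tested, and an SD over spots is technical. The quantitative PCR of other biological replicates, which the series' design text mentions, was not analysed here. The members, all lists and the alternatives were chosen with earlier results of these data known. The genes named were all members, up to 4 genes past 2-fold of each list and array or else the 2 largest, Prkg1 and a few tissue checks, and the 3 genes most like the member with the largest ratio. Xist, Eif2s3y, the E protein genes, Prdm16 and Ebf2 were named after their values were seen.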

Additional observations from a re-analysis of the deposited data

Results flagged for a closer look

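Among the members spotted 10 times, 32 gaps between the brightest or dimmest spot and its nearest neighbour were compared with the range of the spots, and 5 were larger than Dixon's 95% value, where chance gives about 5%. These are spots of 1 array and not samples. On the BAT array the brightest Myf5 spot had a signal of 190.3 in the KO channel (next 70.7) and 226.0 in the WT channel (next 101). It carried an outlier flag, as did 8 of its 24 neighbouring spots, and was left out. The brightest Pax3 spot of that array had 236.8 in KO (next 59.7) and 385.2 in WT (next 44.8). It was also left out, and 0 of its 24 neighbours carried a flag. On the adipocyte array the brightest Myf5 spot of the WT channel had 86.0 (next 81.2), was flagged and left out, and was not well above background.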

How the results depend on the processing

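No paired analysis was possible because each comparison has 1 array. The count of members at least 2-fold lower in tissue was 2, but 0 with outlier spots kept in the fit and 3 after the spike-in shift, with Mef2d at -1.06. In culture the count higher was 1, and 2 with offset 0, 3 with Feature Extraction's ratio (Myf5, Myf6 and Myod1), and 0 both when probes had to be well above background in both channels and after the spike-in shift. The count lower in culture was 0, and 1 (Mef2c) without loess and after the spike-in shift. The members' median was 0.11 without loess and -0.91 after the spike-in shift in tissue, and 0.53 (offset 0), 0.64 (Feature Extraction) and 0.17 (spike-in) in culture. The spike-in shift, added after the data were seen with the median over the spots of a probe, lowers every ratio by 0.84 in tissue and 0.22 in culture; leaving out loess moves the median of all genes to 0.25 and -0.26. After the spike-in shift Myod1 (-0.76) and Mef2a (-0.63) were below 0 in tissue. Over the 9 alternatives, 55 of 62 member values in tissue and 78 of 79 in culture kept their sign. Some alternatives leave the value of a gene with 1 probe unchanged by design, which raises these counts.

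The count of all genes higher in tissue, 125, was 1402 with Feature Extraction's ratio, 672 without loess, 386 with offset 0, 38 with outlier spots kept and 17 after the spike-in shift. The count lower, 381, was 951, 409, 835, 71 and 4573 in the same order. In culture the count higher, 378, was 877, 193, 618, 378 and 206, and the count lower, 630, was 954, 1245, 845, 629 and 973. The causes were not tested. Mstn on both arrays, Myf5, Pax3 and Pax7 in tissue, and Myf5 and Myf6 in the WT culture lay near background, which limits what can be said of them there.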
